A study of Glycine max with 12 samples.

Results

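Seeds of soybean (Glycine max) that overexpress GmNFYA were compared directly with seeds that overexpress GmZF392. The comparison took the 3 libraries labelled N6, from the GmNFYA transgenic soybean, and the 3 labelled 3-12, from the GmZF392 transgenic soybean, which are 6 of the 12 libraries of the series. The other 6 were 3 from the wild type (the cultivar Jack) and 3 from a GmZF351 overexpressor; they entered the fit that estimated the spread, and their levels are given for some of the genes below. Each library holds messenger RNA of seeds at a stage labelled H3. The sources used here explain neither this stage nor the promoter of each transgene, and they give no plant age. The libraries of a genotype share a line code, so each genotype may be a single transgenic line, and effects of the insertion or of the line cannot be told apart from those of the transgene. The labels do not say whether the libraries came from separate plants, so the p-values rest on a spread between libraries that may be technical.

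NF-Y is a trimeric transcription factor whose A subunit recognises the CCAAT box in promoters, while the B subunit LEC1 is a master regulator of embryo maturation. GmZF351 and GmZF392 are known as tandem CCCH zinc finger proteins of developing soybean seeds, and all these factors have been linked to seed oil. Soybean seeds fill with 11S and 7S storage globulins and with oil made from sugar that is carried from the seed coat to the embryo.

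Expression is given in CPM, the read count relative to the library total after TMM scaling, in the order of libraries 1, 2 and 3 of a genotype. Fold differences are GmNFYA relative to GmZF392 overexpressor, with the log2 fold change and its standard error (SE). A gene is said to be called, higher or lower where its adjusted p from edgeR's quasi-likelihood test, adjusted over the 34252 genes tested, was below 0.05. The floor set for a library that lists 0 is 3 counts, or 0.149 to 0.164 CPM in these libraries, and covers counting error only.

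The overexpressed genes were read first, as a check of the labels. GmNFYA, which carries the RefSeq symbol NF-YA02 (Glyma.02G303800) and lies on the minus strand of chromosome 2 (49719199 to 49723036), stood at 268, 328 and 330 CPM in the GmNFYA overexpressor and at 48.8, 46.4 and 41.7 CPM in the GmZF392 overexpressor. The wild type stood at 41.8 ± 1.41 CPM (SD, n = 3), so the GmZF392 overexpressor was near the wild type and the groups did not overlap (6.75-fold, log2 2.76, SE 0.14, adjusted p = 2.4e-07). GmZF392 (Glyma.12G205700), on the plus strand of chromosome 12 (38059961 to 38061812), stood at 105, 79.5 and 93.2 CPM in the GmNFYA overexpressor and at 666, 734 and 545 CPM in the GmZF392 overexpressor. It was 6.99-fold lower in the former (log2 -2.81, SE 0.17, adjusted p = 8.9e-07), with 70.3 ± 1.86 CPM in the wild type (SD, n = 3). Each line was therefore high in the gene of its label. Counts do not separate a transgene's fragments from those of the endogenous gene, and the loci of the zinc finger genes rest on knowledge of the study, since the annotation used here gives them no symbol.

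GmZF351 (Glyma.06G290100), the zinc finger gene that neither line was made to overexpress, stood at 28.3, 26.8 and 25.6 CPM in the GmNFYA overexpressor and at 38.3, 39.3 and 42.0 CPM in the GmZF392 overexpressor. The groups did not overlap, but the difference was not called (log2 -0.57, SE 0.14, adjusted p = 0.0755). It was called with exon-length offsets (0.0220) and with the DESeq2 Wald test (1.4e-04). The wild type stood at 18.7 ± 1.60 CPM (SD, n = 3). Against the wild type, GmZF351 was called higher in the GmZF392 overexpressor (log2 1.09, adjusted p = 4.3e-04). In the GmNFYA overexpressor it was not called against the wild type (log2 0.53, adjusted p = 0.0836).

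**Figure D1:**
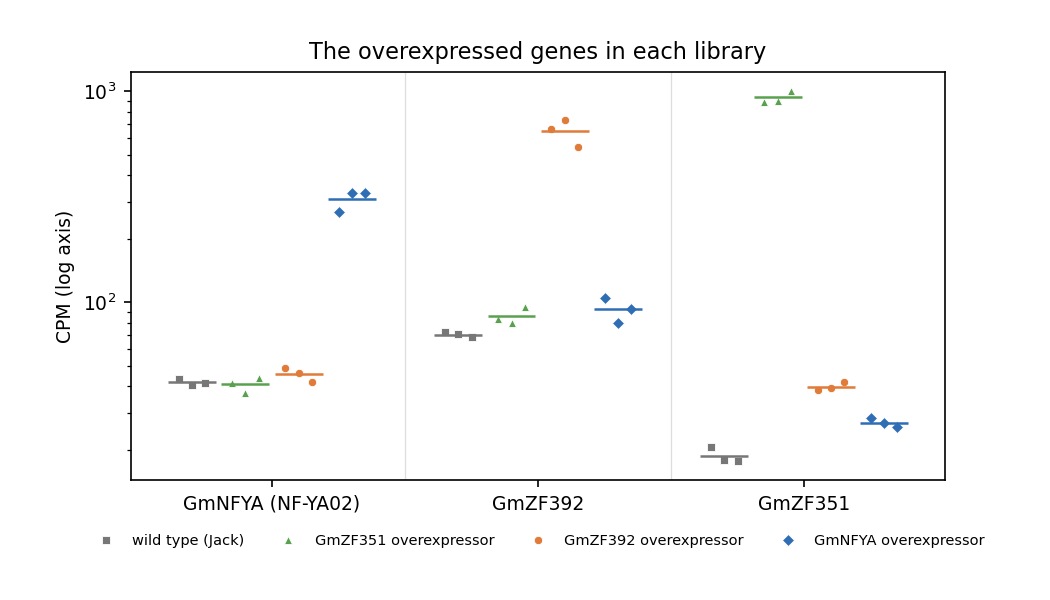
Expression of GmNFYA (NF-YA02), GmZF392 and GmZF351 in CPM on a log axis, with a point for each of the 12 libraries and a line at each genotype's mean (n = 3). The 3 GmNFYA overexpressor libraries sit at 268 to 330 CPM for GmNFYA and the 3 GmZF392 overexpressor libraries at 545 to 734 CPM for GmZF392, each above every other genotype.

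Between the lines 364 of 34252 tested genes were called, which is 1.06% of them. Of these, 90 (0.263%) were higher and 274 (0.800%) lower in the GmNFYA overexpressor, and 259 (0.756%) differed by 2-fold or more, 52 higher and 207 lower. The libraries of both lines did not overlap for 6005 tested genes (17.5%), which included all 364 called genes. The median log2 fold change over all tested genes was 0.01, and 51.3% of tested genes had a positive value. Of the called genes 48 had a RefSeq symbol, 10 higher and 38 lower, and 316 had none. The tested genes with a symbol numbered 1691, and the counts of the gene lists below, drawn from these, stand beside 48 of 1691. The wild-type mean was nearer to the GmNFYA overexpressor in 206 of the 274 lower genes and nearer to the GmZF392 overexpressor in 68, on the log2(CPM + 0.5) scale. For the 90 higher genes the wild-type mean was nearer to the GmNFYA overexpressor in 44 and nearer to the GmZF392 overexpressor in 46. The GmZF351 overexpressor's mean was nearer to the GmNFYA overexpressor in 12 of the higher genes and nearer to the GmZF392 overexpressor in 78. For the lower genes these counts were 148 and 126. Nearness was not counted over all tested genes.

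A pair of libraries stood apart in this comparison. By exon length, GmNFYA library 1 had a median log2 deviation from the mean of the 6 libraries of -0.23 in the 25% of genes with the shortest exons and 0.22 in the 25% with the longest, while GmZF392 library 3 had 0.28 and -0.21. The other 4 libraries lay between -0.09 and 0.09. With exon-length offsets 563 genes were called, 355 of the 364 among them, and without both of these libraries 206 were called, 191 of them among the 364. The count was 198 without GmNFYA library 2, 207 without GmNFYA library 3 and 235 without GmZF392 library 3. The higher calls numbered 39 without GmNFYA library 2 or GmZF392 library 2, 41 without GmNFYA library 3, 44 without GmZF392 library 3 and 57 without GmZF392 library 1. The lower calls numbered 159 without GmNFYA library 2 and 166 without GmNFYA library 3. The DESeq2 Wald test called 705 genes, all 364 among them. The difference between the lines itself moved with exon length. By 25% groups from shortest to longest, its median log2 fold change was -0.09, -0.03, 0.03 and 0.09. These groups held 122, 107, 83 and 52 calls.

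**Figure D2:**
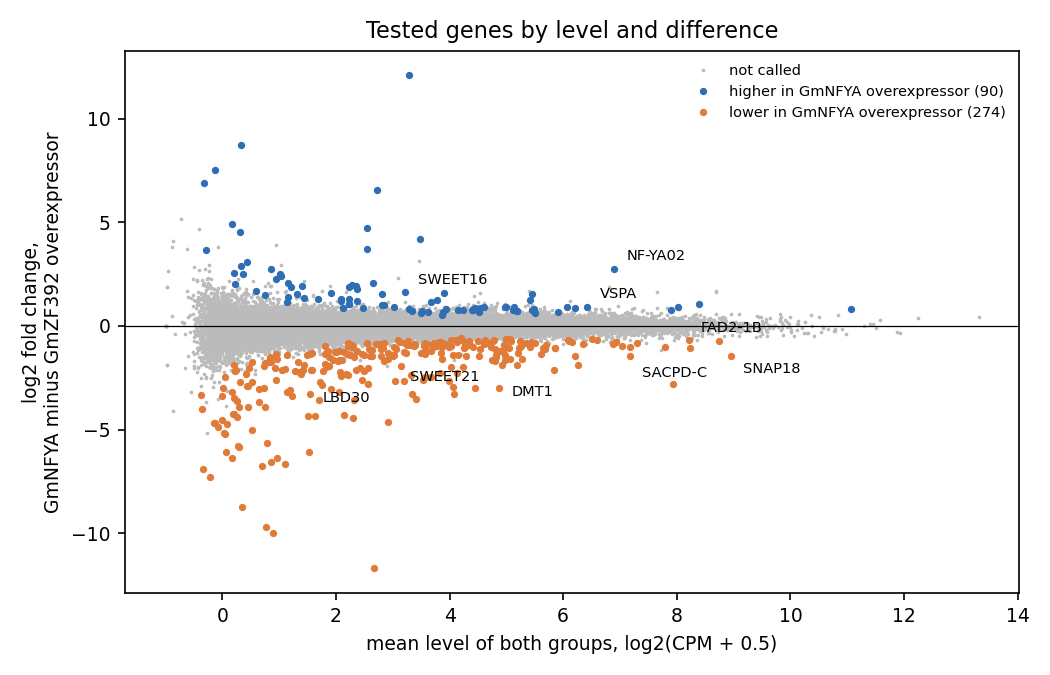
Log2 fold change (GmNFYA minus GmZF392 overexpressor, vertical axis) against the mean level of both groups in log2(CPM + 0.5) (horizontal axis) for the 34252 tested genes, each point a gene, with the 90 called higher and the 274 called lower in colour. The lower calls outnumber the higher ones along most of the range of levels, while the uncalled genes are centred near 0.

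Storage protein genes were lower in the GmNFYA overexpressor where they were called. Of 9 tested globulin genes 2 were called lower and none higher, all 9 had a lower mean, and the median log2 fold change was -0.46, beside 0.01 over all tested genes. The summed globulin level was 2099 to 2232 CPM in the GmNFYA overexpressor, 3022 to 3271 CPM in the GmZF392 overexpressor, 2183 to 2369 CPM in the GmZF351 overexpressor and 761 to 842 CPM in the wild type. The GmNFYA overexpressor thus lay between the GmZF392 overexpressor and the wild type and overlapped the GmZF351 overexpressor. In bulk seed RNA, fewer cells of a type and less RNA per cell cannot be told apart.

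GY4 (Glyma.10G037100), a glycinin gene, stood at 21.1, 16.9 and 17.6 CPM in the GmNFYA overexpressor and at 39.1, 49.0 and 33.8 CPM in the GmZF392 overexpressor. It was 2.19-fold lower in the former (log2 -1.13, SE 0.18, adjusted p = 0.00410). Every library of both lines was above the wild type, at 1.94 ± 0.443 CPM (SD, n = 3), and the lines did not overlap. The glycinin gene GY2 (Glyma.03G163467) stood at 121, 121 and 113 CPM in the GmNFYA overexpressor and at 213, 231 and 190 CPM in the GmZF392 overexpressor, against 28.1 ± 2.22 CPM in the wild type (SD, n = 3). Its difference was called (log2 -0.84, SE 0.16, adjusted p = 0.0158), and the call ended without GmNFYA library 1 (0.0528), 2 (0.0846) or 3 (0.106) and without GmZF392 library 1 (0.0647) or 2 (0.0842). The glycinin gene GY1 (Glyma.03G163533), named after its values were seen, stood at 145, 145 and 138 CPM in the GmNFYA overexpressor and at 337, 371 and 233 CPM in the GmZF392 overexpressor. GY1 did not overlap between the lines but missed the threshold (log2 -1.14, SE 0.25, adjusted p = 0.0514); it was called without GmZF392 library 3 (0.0345), with no filter (0.0351), with the 6 compared libraries alone (0.0253), with exon-length offsets (0.0169) and with the DESeq2 Wald test (0.00114). CG-1, a 7S conglycinin gene and the highest of the list by CPM among those not called, stood at 1795, 1692 and 1785 CPM in the GmNFYA overexpressor and at 2381, 2422 and 2210 CPM in the GmZF392 overexpressor (log2 -0.41, SE 0.13, adjusted p = 0.246; 1.3e-04 with DESeq2). Without GmZF392 library 3 the globulin list had 3 called members, and without any of the other compared libraries it had 1. It had 4 by DESeq2 and 3 with exon-length offsets, no filter or the 6 compared libraries alone.

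P34 (Glyma.08G116300), for a seed vacuolar thiol protease homologue known as an allergen, stood at 127, 165 and 172 CPM in the GmNFYA overexpressor and at 306, 292 and 350 CPM in the GmZF392 overexpressor. The groups did not overlap, and P34 was 2.04-fold lower in the GmNFYA overexpressor (log2 -1.03, SE 0.16, adjusted p = 0.00412). Wild-type seeds stood at 95.7 ± 9.98 CPM and the GmZF351 overexpressor at 321 ± 26.6 CPM (SD, n = 3), the latter beside the GmZF392 overexpressor. Leaving out both GmNFYA library 1 and GmZF392 library 3 ended this call (0.0584). It was the single call among 7 tested genes of protease inhibitors, lectin and P34, whose median log2 fold change was -0.43; DESeq2 called 2. In that list KTI3, for a Kunitz trypsin inhibitor, stood at 2944, 3559 and 3739 CPM in the GmNFYA overexpressor and at 3594, 3607 and 5197 CPM in the GmZF392 overexpressor, with overlapping libraries (log2 -0.28, SE 0.20, adjusted p = 0.700).

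Lipoxygenases, which oxidise polyunsaturated fatty acids, had 2 of 6 tested genes called lower and none higher, with a median log2 fold change of -0.57. LOX1.1 (Glyma.13G347600), a seed lipoxygenase gene, stood at 4.46, 3.87 and 2.74 CPM in the GmNFYA overexpressor and at 6.64, 10.3 and 7.27 CPM in the GmZF392 overexpressor (log2 -1.13, SE 0.23, adjusted p = 0.0271). LOX3 (Glyma.15G026300), another seed isozyme, stood at 82.1, 70.3 and 64.8 CPM in the GmNFYA overexpressor and at 118, 116 and 106 CPM in the GmZF392 overexpressor (log2 -0.65, SE 0.14, adjusted p = 0.0403). Neither gene overlapped between the lines, and the wild type stood at 3.02 ± 0.195 CPM for LOX1.1 and 33.5 ± 3.54 CPM for LOX3 (SD, n = 3). The LOX1.1 call ended without GmNFYA library 2 (0.112) or 3 (0.159) or GmZF392 library 2 (0.141) or 3 (0.0508), and with the 6 compared libraries alone (0.0913). The LOX3 call ended without GmNFYA library 2 (0.224) or 3 (0.248) or GmZF392 library 1 (0.148), 2 (0.138) or 3 (0.0696), and with the 6 compared libraries alone (0.101). The list had no called member without GmNFYA library 2, GmNFYA library 3 or GmZF392 library 2, and 1 without GmZF392 library 1 or 3. It had none with the 6 compared libraries alone, 3 with exon-length offsets or without both GmNFYA library 1 and GmZF392 library 3, and 4 with DESeq2. LOX9, the highest of the list by CPM, stood at 972, 902 and 847 CPM in the GmNFYA overexpressor and at 1426, 1231 and 1169 CPM in the GmZF392 overexpressor and was not called (log2 -0.49, SE 0.14, adjusted p = 0.190; 0.00301 with DESeq2).

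Desaturase genes, which set the degree of unsaturation of seed oil, had 3 of 23 tested members lower in the GmNFYA overexpressor and none higher. Their median log2 fold change was 0.01, the same as over all tested genes, so the calls were those of particular members. FAD2-1A (Glyma.10G278000), a seed oleate desaturase gene, stood at 20.7, 18.4 and 20.2 CPM in the GmNFYA overexpressor and at 46.9, 53.0 and 38.6 CPM in the GmZF392 overexpressor. It was 2.33-fold lower (log2 -1.22, SE 0.16, adjusted p = 0.00108) and did not overlap. The wild type stood at 20.6 ± 2.19 CPM (SD, n = 3), beside the GmNFYA overexpressor.

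FAD2-1B (Glyma.20G111000), the other seed oleate desaturase gene, stood at 223, 236 and 236 CPM in the GmNFYA overexpressor and at 354, 391 and 382 CPM in the GmZF392 overexpressor (log2 -0.70, SE 0.13, adjusted p = 0.0196). SACPD-C (Glyma.14G121400), for the stearoyl-ACP desaturase that makes oleate from stearate, stood at 54.2, 105 and 101 CPM in the GmNFYA overexpressor and at 262, 216 and 232 CPM in the GmZF392 overexpressor. It was 2.72-fold lower (log2 -1.45, SE 0.28, adjusted p = 0.0194). Neither gene overlapped between the lines, and for SACPD-C the lowest library was GmNFYA library 1. Wild-type levels were 185 ± 9.98 CPM for FAD2-1B and 188 ± 60.5 CPM for SACPD-C (SD, n = 3). The FAD2-1B call ended without GmNFYA library 1 (0.0770), 2 (0.106) or 3 (0.101) or GmZF392 library 1 (0.0541), 2 (0.0959) or 3 (0.0745), and with the 6 compared libraries alone (0.0590). The SACPD-C call ended without GmNFYA library 1 (0.0577) or 3 (0.0546) or GmZF392 library 1 (0.0878) or 3 (0.0550). The list had 1 called member without GmNFYA library 1 or 3 or GmZF392 library 1 or 3, and 5 with exon-length offsets or with DESeq2. FAD2-2, the highest by CPM among those not called, stood at 69.7, 66.7 and 68.2 CPM and at 91.1, 93.1 and 94.5 CPM (log2 -0.45, SE 0.12, adjusted p = 0.122) and was called under both (0.0310 and 6.8e-04).

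The listed genes upstream and downstream of desaturation were not called by edgeR or by the DESeq2 Wald test. The lists hold only genes picked by RefSeq symbol. Of the tested genes 1691 had a symbol, and 316 called genes had none. Genes of these steps without a symbol are therefore outside the lists, and whether any of them were called was not tested. None of 12 tested genes of plastid fatty acid synthesis passed (0 at an unadjusted p below 0.05), with a median log2 fold change of 0.20; ACCC-2, a biotin carboxylase gene of acetyl-CoA carboxylase, stood at 270, 253 and 249 CPM in the GmNFYA overexpressor and at 237, 214 and 188 CPM in the GmZF392 overexpressor (log2 0.27, SE 0.14, adjusted p = 0.534). None of 5 tested genes of oil bodies and triacylglycerol assembly passed (2 unadjusted), with a median of -0.34. There P89, an oleosin gene, stood at 790, 1258 and 1309 CPM in the GmNFYA overexpressor and at 1492, 1387 and 1362 CPM in the GmZF392 overexpressor (log2 -0.34, SE 0.30, adjusted p = 0.759), with GmNFYA library 1 far below the rest. Late embryogenesis and seed maturation proteins had no call among 26 tested genes (median -0.03, 2 unadjusted; 1 without GmZF392 library 1), and seed maturation regulators none among 9 (median 0.04, 2 unadjusted), by either tool. In the latter, LEC1-B stood at 359, 400 and 397 CPM in the GmNFYA overexpressor and at 360, 348 and 377 CPM in the GmZF392 overexpressor, and the libraries overlapped (log2 0.09, SE 0.13, adjusted p = 0.867). Of 24 tested nuclear factor Y subunit genes the single call was NF-YA02 itself, and the median was -0.09.

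PPCK2 (Glyma.20G222600), for a kinase that activates phosphoenolpyruvate carboxylase, stood at 38.9, 38.5 and 41.6 CPM in the GmNFYA overexpressor and at 80.2, 84.2 and 83.4 CPM in the GmZF392 overexpressor. It was 2.08-fold lower (log2 -1.06, SE 0.13, adjusted p = 6.2e-04), and the wild type, at 38.2 ± 4.79 CPM (SD, n = 3), lay beside the GmNFYA overexpressor. It was the single call among 12 tested genes of glycolysis and PEP carboxylase, whose median was -0.04; with exon-length offsets 2 were called.

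**Figure D3:**
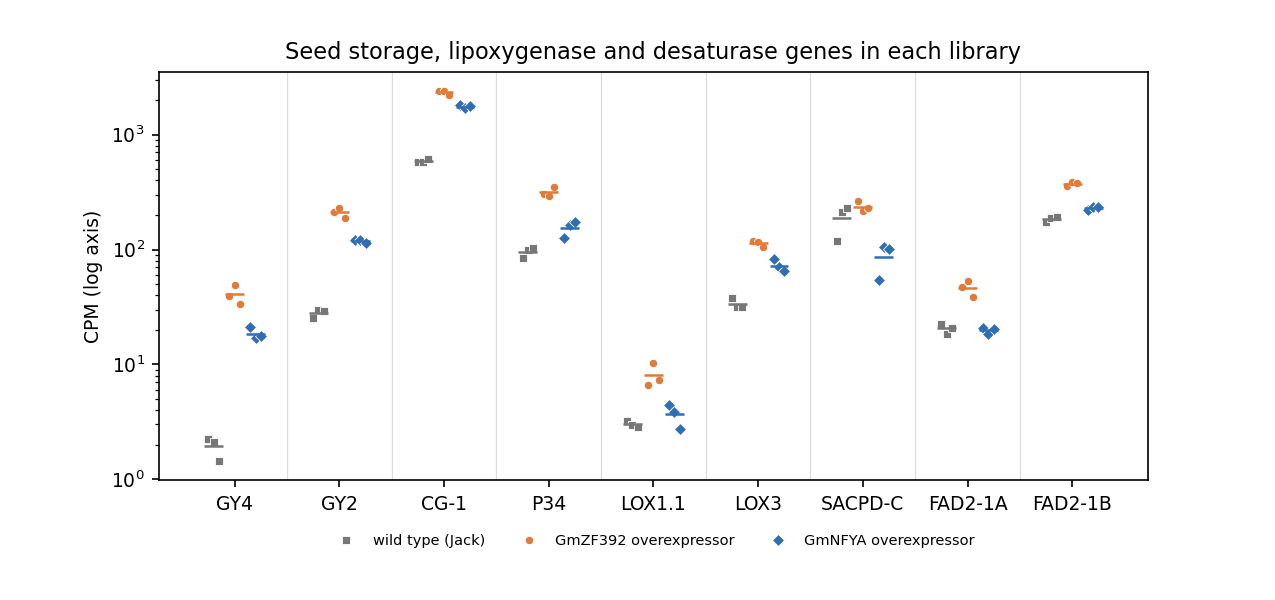
Expression of 9 seed genes in CPM on a log axis in the wild type, the GmZF392 overexpressor and the GmNFYA overexpressor, with a point for each library and a line at the mean (n = 3). The GmNFYA libraries sit below the GmZF392 libraries for each of these genes, CG-1 included, which was not called; for GY4 both lines are above the wild type, and for FAD2-1A the GmNFYA libraries, at 18.4 to 20.7 CPM, are at the wild-type level.

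Embryo and seed coat markers were read beside these genes. The 14 embryo storage markers summed to 3608 to 3733 CPM in the GmNFYA overexpressor and 5105 to 5433 CPM in the GmZF392 overexpressor, without overlap, and 8 of them were called. These 8 are storage, lipoxygenase and desaturase genes already given above, so the embryo markers are not a separate reading of tissue. The 9 seed coat markers summed to 5390 to 6787 CPM and 4385 to 5559 CPM, which overlap, and 1 of them, SWEET15, was called. The 4 green tissue markers summed to 1150 to 1733 CPM and 1279 to 1700 CPM, with no call. Of 7 nodule markers counted, 3 were at 0 in all 6 libraries. The part of tissue proportions in the storage gene differences was not tested.

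Sugar transport and cleavage had calls in both directions, 3 higher and 4 lower among 28 tested genes, with a median log2 fold change of -0.29. Most calls of the list were SWEET genes, which encode bidirectional sugar uniporters that release sugars from cells, and the rest were STP genes, for sugar and proton symporters. MST1 (Glyma.08G035300), outside the list and named after its values were seen, was called lower as well (log2 -1.02, SE 0.15, adjusted p = 0.00234). The list had 4 called members without GmNFYA library 2 or GmZF392 library 2, 9 with exon-length offsets and 11 with DESeq2.

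SWEET21 (Glyma.08G010000) stood at 14.5, 17.5 and 14.6 CPM in the GmNFYA overexpressor and at 51.4, 54.2 and 65.5 CPM in the GmZF392 overexpressor, 3.67-fold lower (log2 -1.88, SE 0.14, adjusted p = 7.0e-06). SWEET11 (Glyma.05G202700) stood at 23.1, 24.3 and 22.8 CPM and at 52.2, 54.5 and 64.3 CPM in the same order, 2.44-fold lower (log2 -1.28, SE 0.14, adjusted p = 3.2e-04). For both genes the lines did not overlap and the wild type, at 64.1 ± 3.68 and 60.7 ± 3.42 CPM (SD, n = 3), lay beside the GmZF392 overexpressor. Against the wild type the GmNFYA overexpressor gave an adjusted p of 2.6e-06 for SWEET21 and 1.2e-04 for SWEET11 (1.56% of tested genes were called in that comparison). The GmZF392 overexpressor, which shares the wild-type libraries, gave 0.685 and 0.861 (2.20% called).

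SWEET15, SWEET16 and SWEET17 are next to each other on the plus strand of chromosome 6 and did not share a direction. SWEET15 (Glyma.06G166800, 13866485 to 13868782) stood at 11.3, 9.62 and 11 CPM in the GmNFYA overexpressor and at 18.4, 17.9 and 18.6 CPM in the GmZF392 overexpressor (log2 -0.78, SE 0.13, adjusted p = 0.00818). SWEET16 (Glyma.06G166900, 13885783 to 13888665) stood at 14.4, 16.2 and 15.4 CPM and at 5.20, 4.35 and 5.35 CPM, 3.08-fold higher in the GmNFYA overexpressor (log2 1.62, SE 0.17, adjusted p = 1.4e-04). Both genes were without overlap between the lines. The wild type stood at 20.1 ± 0.686 CPM for SWEET15, beside the GmZF392 overexpressor, and at 15.7 ± 2.82 CPM for SWEET16, beside the GmNFYA overexpressor (SD, n = 3). The GmZF351 overexpressor stood at 3.28 ± 0.442 CPM for SWEET16 (SD, n = 3), below both lines. SWEET17 (Glyma.06G167000, 13899833 to 13902581), named after its values were seen, stood at 5.53, 6.95 and 5.79 CPM and at 4.16, 3.87 and 3.33 CPM and was not called (log2 0.68, SE 0.19, adjusted p = 0.139). The SWEET15 call ended without GmNFYA library 2 (0.0699) and without both GmNFYA library 1 and GmZF392 library 3 (0.0540).

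SWEET5 (Glyma.04G198500) stood at 39.8, 52.1 and 49.0 CPM in the GmNFYA overexpressor and at 22.1, 23.7 and 29.9 CPM in the GmZF392 overexpressor, 1.86-fold higher without overlap (log2 0.90, SE 0.15, adjusted p = 0.00800). It was no longer called without GmNFYA library 2 (0.0596), GmZF392 library 1 (0.0576) or GmZF392 library 2 (0.0588). STP (Glyma.11G119500) stood at 6.15, 4.97 and 6.79 CPM and at 3.22, 2.28 and 3.11 CPM (log2 1.05, SE 0.21, adjusted p = 0.0219). The STP call ended without GmNFYA library 1 (0.0707) or 3 (0.134) or GmZF392 library 1 (0.0526), 2 (0.119) or 3 (0.0576), and with the 6 compared libraries alone (0.0774). STP1, the remaining lower call and named after its values were seen, stood at 12.4, 14.1 and 13.3 CPM and at 23.2, 23.2 and 17.5 CPM (log2 -0.69, SE 0.14, adjusted p = 0.0304). It was lost without GmNFYA library 1 (0.112), 2 (0.0978) or 3 (0.145) or GmZF392 library 1 (0.142) or 2 (0.146), and with the 6 compared libraries alone (0.109). SS, for a sucrose synthase and the highest by CPM among those not called in the list, stood at 825, 705 and 749 CPM and at 854, 812 and 772 CPM, which overlap (log2 -0.10, SE 0.14, adjusted p = 0.865). More abundant SWEET genes, named after their values were seen, overlapped and were not called. SWEET24 had means of 758 and 710 CPM (log2 0.09, SE 0.18, adjusted p = 0.905) and SWEET39 of 144 and 170 CPM (log2 -0.24, SE 0.17, adjusted p = 0.696). SWEET10 was not called either (log2 -0.77, SE 0.21, adjusted p = 0.133), but was with exon-length offsets (0.0152) and DESeq2 (0.0342).

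**Figure D4:**
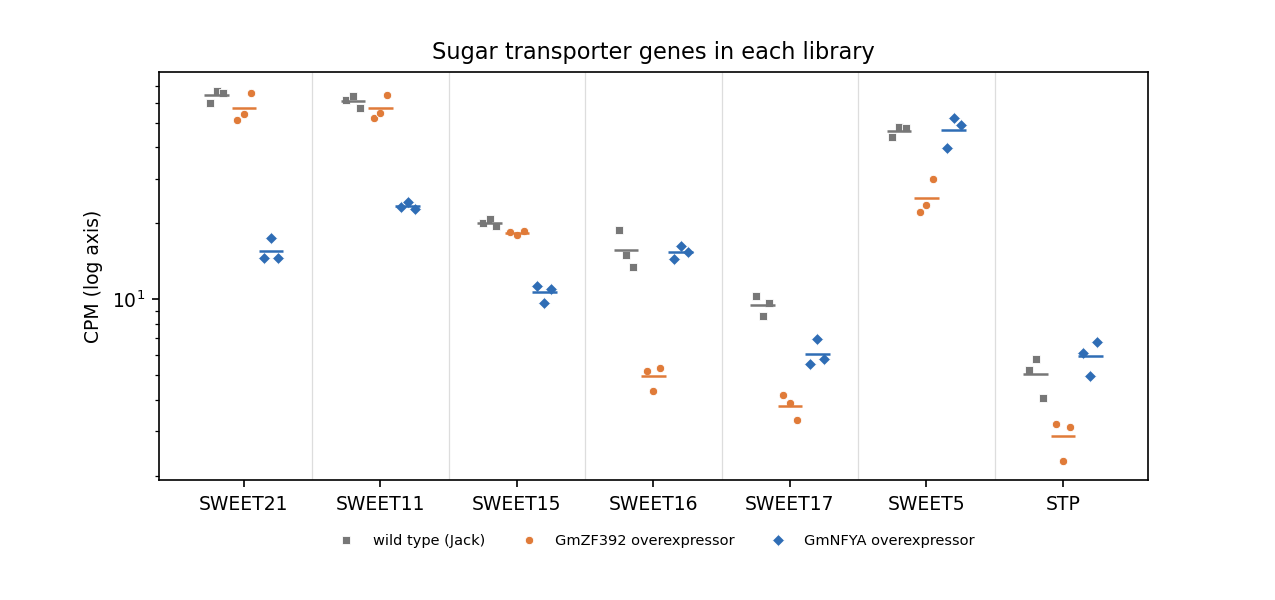
Expression of 7 sugar transporter genes in CPM on a log axis in the wild type, the GmZF392 overexpressor and the GmNFYA overexpressor, with a point for each library and a line at the mean (n = 3). SWEET21, SWEET11 and SWEET15 are lower in the GmNFYA libraries than in both other genotypes shown, while SWEET16 and SWEET5 are lower in the GmZF392 libraries, at 4.35 to 5.35 and 22.1 to 29.9 CPM.

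Among other genes with a symbol, DMT1 (Glyma.17G165200), for a divalent metal transporter known from soybean nodules, stood at 9.38, 10.1 and 10.8 CPM in the GmNFYA overexpressor and at 78.1, 85.9 and 78.1 CPM in the GmZF392 overexpressor. It was 8.0-fold lower without overlap (log2 -3.0, SE 0.15, adjusted p = 1.2e-07), and the wild type, at 63.0 ± 5.20 CPM (SD, n = 3), lay nearer to the GmZF392 overexpressor. It was the single call among 15 tested genes of metal transport and storage (median 0.02). DREB1 (Glyma.14G084700), of a family of dehydration-responsive factors, stood at 13.9, 17.6 and 18 CPM and at 50.5, 43.6 and 45.7 CPM, 2.83-fold lower (log2 -1.50, SE 0.15, adjusted p = 9.6e-05). The wild type stood at 48.0 ± 4.37 CPM (SD, n = 3), beside the GmZF392 overexpressor.

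The heat shock factor genes HSF-03 and HSF-08, of a family of regulators of chaperone genes, were lower as well, 2 of 27 tested factors (median -0.12). HSF-03 (Glyma.01G217400) stood at 31.0, 28.3 and 29.4 CPM and at 58.7, 67.1 and 55.1 CPM (2.04-fold, log2 -1.03, SE 0.12, adjusted p = 4.6e-04). HSF-08 (Glyma.04G052000) stood at 5.28, 7.94 and 7.98 CPM and at 15.5, 16.6 and 20.3 CPM (2.47-fold, log2 -1.30, SE 0.19, adjusted p = 0.00215). Neither overlapped between the lines, and the wild type stood at 49.6 ± 1.42 CPM for HSF-03 and 18.9 ± 1.60 CPM for HSF-08 (SD, n = 3). DESeq2 called 4 of these factors. Of 17 tested heat shock protein genes HSP17.9-D, for a small heat shock protein, was the single call (adjusted p = 0.00793). It stood at 0, 0.105 and 0 CPM and at 0.941, 1.06 and 1.09 CPM, a ratio of 30.2 with a 95% counting interval of 8.0 to 255, and was lost without GmNFYA library 3 (0.0593), which left that list with no call. HSP90-1, the highest of that list by CPM among those not called, stood at 490, 687 and 690 CPM and at 633, 527 and 609 CPM and was not called (log2 0.08, SE 0.18, adjusted p = 0.927).

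Some regulators and hormone genes were low in both the GmNFYA overexpressor and the wild type. LBD30 (Glyma.07G091600), a LOB domain factor, stood at 0.512, 0.993 and 0.549 CPM in the GmNFYA overexpressor, at 7.83, 6.36 and 5.68 CPM in the GmZF392 overexpressor and at 1.11 ± 0.530 CPM in the wild type (SD, n = 3). It was 9.63-fold lower (log2 -3.27, SE 0.36, adjusted p = 2.5e-04). BZIP105 (Glyma.03G247100), a basic leucine zipper factor, stood at 2.56, 1.31 and 1.35 CPM and at 10.4, 7.79 and 8.80 CPM (5.15-fold, log2 -2.37, SE 0.28, adjusted p = 4.6e-04), with 2.30 ± 0.622 CPM in the wild type (SD, n = 3). Neither overlapped between the lines. BZIP104 was lower too (2.85-fold, log2 -1.51, SE 0.22, adjusted p = 0.00263). GH3 (Glyma.05G101300), of a family that conjugates auxin to amino acids, stood at 1.43, 1.1 and 0.848 CPM and at 4.86, 5.35 and 4.64 CPM (4.38-fold, log2 -2.13, SE 0.26, adjusted p = 7.0e-04), and at 0.684 ± 0.123 CPM in the wild type (SD, n = 3). PRP (Glyma.05G057800), for a proline-rich cell wall protein, stood at 2.56, 2.46 and 2.84 CPM and at 10.2, 10.1 and 12.0 CPM (4.08-fold, log2 -2.03, SE 0.21, adjusted p = 1.4e-04), and at 2.49 ± 0.609 CPM in the wild type (SD, n = 3). Neither of these overlapped between the lines. By list, LBD factors had 1 call among 12 tested genes (median -0.14), auxin 1 among 36 (-0.09), cell wall 1 among 19 (-0.03), and bZIP factors 1 higher and 2 lower among 80 (-0.04). Over all tested genes with a symbol, 48 of 1691 were called, so counts this small do not set these lists apart. With exon-length offsets 2 LBD, 3 auxin and 2 cell wall genes were called, and DESeq2 called 2 auxin genes. DREB1 was the single call among 9 tested genes of abscisic acid and dehydration (-0.04).

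GASA26 (Glyma.17G092800), of a family of small gibberellin-responsive peptides, differed from the wild type in opposite directions. It stood at 3.84, 4.97 and 5.59 CPM in the GmNFYA overexpressor, at 22.9, 24.5 and 31.0 CPM in the GmZF392 overexpressor and at 10.4 ± 1.40 CPM in the wild type (SD, n = 3). The lines differed 5.44-fold (log2 -2.44, SE 0.18, adjusted p = 5.3e-06), and against the wild type the adjusted p was 0.00403 in the GmNFYA and 4.7e-04 in the GmZF392 overexpressor. It and GASA4 (log2 -0.86, SE 0.19, adjusted p = 0.0433) were the calls among 40 tested gibberellin genes, whose median was -0.20. The GASA4 call ended without each compared library in turn (adjusted p 0.0572 to 0.220), so the list then had 1 called member, and with exon-length offsets (0.0556). The list had 4 called members with DESeq2.

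NAC transcription factors had 2 of 19 tested genes lower, with a median of -0.32. NAC3 stood at 0.307, 0.470 and 0.20 CPM and at 1.59, 1.96 and 1.42 CPM (log2 -2.33, SE 0.42, adjusted p = 0.0128), and was lost without GmNFYA library 1 (0.0672) or 3 (0.103) or GmZF392 library 2 (0.0623). NAC27 stood at 2.0, 2.56 and 3.29 CPM and at 8.67, 7.21 and 6.72 CPM (log2 -1.52, SE 0.28, adjusted p = 0.0147), and was lost without GmNFYA library 1 (0.0698) or 2 (0.0877) or GmZF392 library 1 (0.0796). Neither overlapped between the lines; the list had no call without GmNFYA library 1 and 1 without GmNFYA library 2 or 3 or GmZF392 library 1 or 2. MIPS4 (Glyma.08G138200), for an enzyme of myo-inositol synthesis, stood at 0.359, 0.261 and 0.150 CPM and at 1.54, 2.07 and 2.24 CPM, 7.44-fold lower (log2 -2.90, SE 0.44, adjusted p = 0.00327). The wild type stood at 1.86 ± 0.778 CPM (SD, n = 3), beside the GmZF392 overexpressor. The gene with the symbol MS stood at 0.154, 0.157 and 0.150 CPM and at 1.83, 0.954 and 1.58 CPM (log2 -3.20, SE 0.58, adjusted p = 0.0139), and was lost without GmNFYA library 1 (0.0672), 2 (0.0877) or 3 (0.0902) or GmZF392 library 1 (0.0674).

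Of the 10 higher genes with a symbol, NF-YA02 and the sugar transporters are given above. VSPA (Glyma.07G014500), for a vegetative storage protein, stood at 109, 121 and 124 CPM in the GmNFYA overexpressor and at 55.0, 68.6 and 61.2 CPM in the GmZF392 overexpressor. It was 1.91-fold higher without overlap (log2 0.94, SE 0.13, adjusted p = 0.00176), and the wild type stood at 99.0 ± 2.98 CPM (SD, n = 3), nearer to the GmNFYA overexpressor. It was the single call among 14 tested genes of nitrogen and vegetative storage (median 0.26). PRR3A, of the pseudo-response regulators of the plant clock, stood at 9.43, 9.77 and 8.83 CPM and at 4.46, 5.19 and 4.48 CPM, with 14.9 ± 2.21 CPM in the wild type (SD, n = 3; log2 0.99, SE 0.20, adjusted p = 0.0304). Its groups did not overlap, but the call ended without each compared library in turn (adjusted p 0.0825 to 0.143), which left its list, flowering and light (median -0.04), with 0 of 36 called. GSTL2, for a lambda glutathione S-transferase, stood at 283, 316 and 342 CPM and at 175, 162 and 207 CPM (log2 0.79, SE 0.17, adjusted p = 0.0363), and was lost without GmNFYA library 2 (0.154) or 3 (0.190) or GmZF392 library 1 (0.158), 2 (0.193) or 3 (0.0505) or with the 6 compared libraries alone (0.0633), which left its list of 28 (median 0.01) with no call. That list had 2 calls with exon-length offsets and 3 with DESeq2. BZIP90 (log2 0.85, SE 0.17, adjusted p = 0.0233), N-26 (log2 0.92, SE 0.19, adjusted p = 0.0289) and PUR1 (log2 1.47, SE 0.31, adjusted p = 0.0345) complete the 10. The BZIP90 call ended without any GmNFYA library (0.106, 0.0716 and 0.0672) and without GmZF392 library 1 (0.109) or 2 (0.120), and with the 6 compared libraries alone (0.0898). N-26 was lost without GmNFYA library 2 (0.134) or 3 (0.150) or any GmZF392 library (0.0513, 0.155 and 0.0824), and PUR1 without each compared library in turn (0.0773 to 0.195) and with the 6 compared libraries alone (0.0961).

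Most other lists had no call in the edgeR fit. Flavonoids and proanthocyanidins had none among 43 tested genes (median log2 fold change -0.01), with 4 at an unadjusted p below 0.05 and 1 called by DESeq2. Ethylene and jasmonate (16 tested, median 0.11), WRKY factors (39, -0.03) and phosphate (20, -0.11) likewise had 4 unadjusted and 1 by DESeq2 each. The lists follow symbol patterns, and EBP (Glyma.02G016100), named after its values were seen, is in none of them. EBP stood at 34.1, 35.1 and 35.2 CPM in the GmNFYA overexpressor and at 72.7, 73.3 and 78.4 CPM in the GmZF392 overexpressor. It was called lower (log2 -1.10, SE 0.13, adjusted p = 5.4e-04). Photosynthesis (8, -0.15) had 1 unadjusted, water channels (35, 0.02) had 5, lipid breakdown (9, -0.31) had 2 and defence (10, -0.07) had 1, with none by DESeq2; defence had 1 call with the 6 compared libraries alone, and photosynthesis and phosphate 1 each with exon-length offsets. Seed coat genes (7, -0.09) had 2 unadjusted and 1 by DESeq2, and the 2 tested nodule genes (0.15) had none by any of these. MYB factors had no call among 59 tested genes by either tool and 10 unadjusted, with a lower mean in the GmNFYA overexpressor for 50 of them and a median of -0.20. Cell division and histone genes had none among 14 by any of these, each at or above the GmZF392 mean, with a median of 0.15. Over all tested genes 3484 had an unadjusted p below 0.05.

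The largest folds belonged to genes without a symbol. Glyma.02G093200 (chromosome 2, 8232345 to 8234800, minus strand) stood at 166, 189 and 184 CPM in the GmNFYA overexpressor and at 0.0496, 0.0530 and 0 CPM in the GmZF392 overexpressor, with 0.129 ± 0.0708 CPM in the wild type (SD, n = 3). The ratio of its counts was 5152, with a 95% counting interval of 1426 to 42551 (adjusted p = 8.6e-09). Glyma.10G113000 (chromosome 10, 27099728 to 27103265, minus strand) stood at 3.02, 3.19 and 1.85 CPM and at 0 in every GmZF392 library, at least 17.1-fold higher by the floor of 3 counts per library (adjusted p = 0.00119). Both were thus near 0 outside the GmNFYA overexpressor. In the other direction, Glyma.12G161200 (chromosome 12, 30245133 to 30251896, minus strand) stood at 0, 0 and 0.0499 CPM in the GmNFYA overexpressor and at 68.8, 70.1 and 93.4 CPM in the GmZF392 overexpressor. The ratio of its counts was 4522, with an interval of 811 to 178664 (adjusted p = 2.6e-08), and the wild type stood at 75.5 ± 19.0 CPM (SD, n = 3). Transcripts of this gene were thus near 0 in the GmNFYA overexpressor and present in the other genotypes. Glyma.14G073300 (chromosome 14, 6053807 to 6057787, plus strand) was at 0 in the GmNFYA overexpressor and in the wild type and at 5.0, 5.46 and 8.91 CPM in the GmZF392 overexpressor, at least 42.1-fold lower in the former (adjusted p = 1.8e-04).

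Called genes were spread over all 20 chromosomes, from 0.713% of the tested genes of chromosome 18 to 1.51% of those of chromosome 12. Of 33994 windows of 10 neighbouring tested genes 30670 (90.2%) held no call, and 3 (0.00883%) held 4, the highest number. Those 3 overlap each other on chromosome 18 and span 1583256 to 1669206, and their 4 calls were all lower in the GmNFYA overexpressor. They surround SNAP18 and WI12, genes of the rhg1 locus, which is known for resistance to the soybean cyst nematode and for copy number that varies between cultivars. The genes of this segment were named after their values were seen, and copy number was not measured here.

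SNAP18 (Glyma.18G022500, 1639181 to 1643814, plus strand), for a vesicle fusion protein, stood at 286, 291 and 320 CPM in the GmNFYA overexpressor and at 729, 696 and 1022 CPM in the GmZF392 overexpressor. It was 2.73-fold lower (log2 -1.45, SE 0.21, adjusted p = 0.00261). WI12 (Glyma.18G022700, 1651098 to 1652076, plus strand), of a wound-inducible family, stood at 17.2, 17.8 and 20.5 CPM and at 67.5, 64.1 and 75.1 CPM, 3.73-fold lower (log2 -1.90, SE 0.17, adjusted p = 4.4e-05). Glyma.18G022400 (1634531 to 1637713, minus strand) stood at 41.6, 39.6 and 38.1 CPM and at 146, 151 and 145 CPM, 3.70-fold lower (log2 -1.89, SE 0.13, adjusted p = 3.5e-06). For these genes the lines did not overlap, and the wild type, at 838 ± 145, 56.1 ± 8.13 and 121 ± 8.81 CPM (SD, n = 3), was closer to the GmZF392 overexpressor. Against the wild type the GmNFYA overexpressor gave adjusted p of 0.00177, 1.4e-04 and 1.0e-05, and the GmZF392 overexpressor 0.963, 0.523 and 0.401.

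The remaining call of the windows, Glyma.18G022000, was at 0.154, 0.105 and 0.0499 CPM and at 1.14, 0.795 and 1.48 CPM (adjusted p = 0.0187), and its wild-type level, 0.0997 ± 0.00997 CPM (SD, n = 3), was with the GmNFYA overexpressor. It was lost without GmNFYA library 1 (0.0566), 2 (0.114) or 3 (0.134) or GmZF392 library 1 (0.0627) or 3 (0.0808). Between SNAP18 and WI12, Glyma.18G022600 stood at 5.28, 4.39 and 4.19 CPM and at 8.03, 8.48 and 10.4 CPM, without overlap and not called (log2 -0.95, SE 0.24, adjusted p = 0.0925); it was called with the 6 compared libraries alone (0.0491) and with DESeq2 (0.0141). Glyma.18G022551 (1644986 to 1646295), also between them, stood at 2.77, 1.67 and 0.798 CPM and at 2.82, 2.33 and 2.35 CPM, which overlap, and was not called (log2 -0.52, SE 0.54, adjusted p = 0.803). The flanking genes Glyma.18G022300 (log2 -0.31, SE 0.24, adjusted p = 0.719) and Glyma.18G022800 (log2 -0.05, SE 0.22, adjusted p = 0.965) overlapped between the lines.

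**Figure D5:**
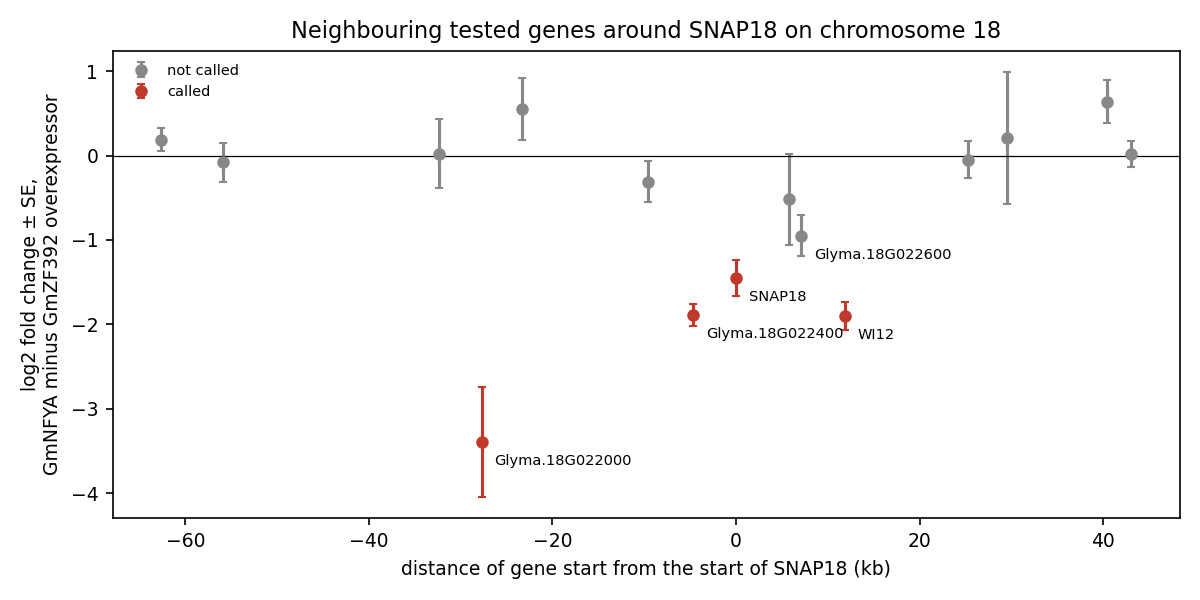
Log2 fold change with its SE (GmNFYA minus GmZF392 overexpressor, vertical axis) of neighbouring tested genes against the distance of each gene's start from that of SNAP18 in kb (horizontal axis), with the 4 called genes in red. Glyma.18G022400, SNAP18 and WI12 lie at -1.89, -1.45 and -1.90, and the genes beyond them on either side lie between -0.31 and 0.64, apart from Glyma.18G022000, whose highest library in either line is at 1.48 CPM.

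Further neighbouring pairs of called genes without a symbol were noted after the values were seen. Glyma.02G084350 and Glyma.02G084400, adjacent on chromosome 2 (7310367 to 7312850), stood at 21.7 to 26.3 and 26.9 to 53.2 CPM in the GmNFYA overexpressor and at 0.546 to 1.54 and 2.12 to 2.68 CPM in the GmZF392 overexpressor (adjusted p = 1.1e-05 and 2.9e-06). The wild type, at 1.1 ± 0.413 and 3.59 ± 1.07 CPM (SD, n = 3), was with the GmZF392 overexpressor. Glyma.06G031000 and Glyma.06G031100 on chromosome 6 were at 6.25 to 9.51 and 3.60 to 7.98 CPM in the GmZF392 overexpressor and at no more than 0.102 CPM in any GmNFYA library (adjusted p = 1.1e-05 and 5.3e-04). Glyma.09G158600 and Glyma.09G158700 on chromosome 9 were 94.5-fold and 13.2-fold higher in the GmNFYA overexpressor (adjusted p = 2.2e-05 and 9.3e-04). The wild-type means, at 18.8 ± 4.26 and 10.4 ± 4.92 CPM (SD, n = 3), lay between those of the lines. For Glyma.09G158700 the wild type overlapped the GmNFYA overexpressor. Against the wild type the adjusted p was 0.171 and 0.466 in the GmNFYA overexpressor and 9.5e-05 and 0.00345 in the GmZF392 overexpressor.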

How the data were processed

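The authors' deposited table holds raw counts of paired-end fragments per gene from featureCounts 2.0.1 with the annotation Gmax_508_Wm82.a4.v1, per the file headers. HISAT2 and DESeq2 are listed, without versions, in the submitters' processing notes. The recorded command names no strand or multimapping option, so close paralogs such as GY1 and GY2 depend on unique alignment. Of 47095 genes, 38253 (81.2%) were paired with a RefSeq gene (Glycine_max_v4.0) where the overlap came to 50% or more of the joint span, for names only.

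Counts of the 12 libraries (17809547 to 22652420 each; 38267 to 39370 genes detected in the compared 6) were fitted in R 4.3.3 with edgeR 4.0.16 (TMM, filterByExpr with minimum count 10 and total 15, robust quasi-likelihood F-test, 1 coefficient per genotype), with Benjamini-Hochberg adjustment over 34252 genes and a threshold of 0.05. On simulated counts the test found 51 of 100 genes made to differ 2-fold and 94 of 100 made to differ 4-fold. Among 155 called, 10 had no difference. The simulated counts carried no exon-length trend like that of GmNFYA library 1 and GmZF392 library 3, so these rates may not hold for the data. An exact test of 3 against 3 libraries cannot give a p below 0.1, so no single-gene exact test was used. Libraries of a line differed by more than sampling noise (chi-square per degree of freedom 2.26 to 30.2) and were counted separately.

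Genes named were the overexpressed genes; up to 12 called genes with a symbol per direction, by fold, with at least 1 CPM in the higher group and no overlap; up to 6 called members of each list and its highest uncalled member by CPM; and 2 genes without a symbol per direction. Others are said to be chosen after their values were seen. The genes and the 36 lists were chosen with earlier results of these data known, and list patterns were revised by symbol after the table was seen. Alternatives were DESeq2 1.42.0 (size factors, Wald test), no filter, the 6 compared libraries, a replicate block, exon-length offsets (lowess span 0.3), and leaving out libraries. Promoter motifs, planned, were not analysed here for want of sequences.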

Additional observations from a re-analysis of the deposited data

How the results depend on the processing

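Genes called numbered 364 and moved by over 1.5 times with exon-length offsets (563), with the DESeq2 Wald test (705) and without both GmNFYA library 1 and GmZF392 library 3 (206, an alternative chosen after seeing the data). Leaving out 1 library gave 198 to 273. Higher calls (90) came to 156 with exon-length offsets, 143 with these and the replicate block, 210 with DESeq2 Wald, 49 without both libraries and 39 to 71 without 1 library. Lower calls (274) came to 495 with DESeq2 Wald, 157 without both libraries and 159 to 216 without 1 library. Calls of 2-fold or more (259) came to 172 without both libraries and 173 to 222 without 1 library. DESeq2 size factors (363, all shared), no filter (360, of which 348 shared) and the 6 compared libraries alone (293, of which 274 shared) stayed within 1.5 times. Of 57 named genes called, 35 kept the call under all 14 alternatives, and no named gene reversed its direction. Leaving out both GmNFYA library 1 and GmZF392 library 3 ended 17 named calls, and the 6 compared libraries alone ended 8. Leaving out 1 library ended 11 (GmZF392 library 3) to 18 (GmNFYA library 3), so the loss was not particular to that pair. The cause of these changes was not tested.

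Same-numbered libraries did not consistently deviate together (r = 0.09, -0.21 and 0.35 for numbers 1, 2 and 3), and not every library correlated best with its own number. Pairing by number was thus not seen, but 3 libraries a line are too few for these correlations to exclude it. With the replicate number as a block 326 genes were called, 310 of them shared, and with the block and exon-length offsets 517, of which 350 were shared. Under the block 6 named genes were no longer called: LOX1.1 (0.0536), GASA4 (0.0733), GSTL2 (0.0501), N-26 (0.0548), PUR1 (0.0780) and STP1 (0.0552). With exon-length offsets as well, PUR1 was not called (0.0648), and GY1 (0.0465) and GmZF351 (0.0350) were among 6 named genes newly called.

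Depth and 3 libraries a line limit the fold that can be called: genes under about 1 CPM rest on few counts.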
